A study of Mus musculus with 12 samples.

Results

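The genes described here encode the collagens, the laminins and the integrin receptors that bind them, measured in the ischemic penumbra of the ipsilateral cortex of Sham and tMCAO/R mice. All genes of the expression table whose symbols follow the naming of collagen chains (Col, number, a, number), laminin chains (Lama, Lamb or Lamc with a number) or integrin chains (Itga or Itgb) were taken, without the integrin-like gene Itgbl1. They were 73 of the 14317 genes of the table, with 40 collagens, 11 laminins and 22 integrins. The samples were 6 Sham and 6 tMCAO/R mice, stated to be male C57BL/6J mice of 8 weeks, with 1 library of poly(A) RNA per mouse. In tMCAO/R, a mouse model of stroke, the middle cerebral artery that supplies the cortex was blocked with a suture for 60 min and then reopened for 24 h, and Sham mice were the controls without it. Values are FPKM (fragments per kilobase of gene, scaled to the size of the library), as deposited by the authors.

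Basement membranes are thin sheets of matrix that wrap the brain's capillaries and lie under the meninges. Collagen IV trimers and laminin trimers each form a network in them, which nidogen and perlecan join. Laminin is built of an alpha, a beta and a gamma chain. Fibrillar collagens form the fibers of connective tissue, which in the brain is found mainly in the meninges and around larger vessels. Integrins are pairs of an alpha and a beta chain in the cell membrane that hold the cell to this matrix and pass signals in both directions. The alpha chain largely sets the ligand, and the beta 1 chain serves many of the collagen and laminin receptors.

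The DNA before the start of some of these genes is printed first, because the data compare transcript levels that begin there. The RefSeq promoter table (GRCm38.p6) held 51 of the 73 genes, and Col1a1, Lamc1 and Itga7 were among those it lacked. From the called genes, described below, those with a stretch of at least 100 bases that shares no run of 31 bases with an annotated transcript were ranked by log2FC, and the highest 2 and the lowest 2 are shown. Each is written 5′ to 3′ on the strand of its gene, within the 250 bases before the RefSeq start. Capitals mark matches of 3 motifs on either strand, the GC box GGGCGG, the CCAAT box CCAAT and the TATA box TATAAA, none of which contains another. Col25a1 and Col1a2 rose, and Lama5 and Col5a1 fell.
Col25a1, chr3:130180595-130180844, plus strand: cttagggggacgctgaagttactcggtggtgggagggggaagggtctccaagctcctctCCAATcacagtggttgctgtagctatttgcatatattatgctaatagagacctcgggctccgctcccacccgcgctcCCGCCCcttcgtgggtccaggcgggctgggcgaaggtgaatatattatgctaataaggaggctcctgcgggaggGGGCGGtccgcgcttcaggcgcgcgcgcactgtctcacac
Col1a2, chr6:4505368-4505492, plus strand: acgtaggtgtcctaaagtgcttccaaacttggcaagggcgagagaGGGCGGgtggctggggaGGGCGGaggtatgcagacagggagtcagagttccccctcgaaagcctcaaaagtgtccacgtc
Lama5, chr2:180225920-180226109, minus strand: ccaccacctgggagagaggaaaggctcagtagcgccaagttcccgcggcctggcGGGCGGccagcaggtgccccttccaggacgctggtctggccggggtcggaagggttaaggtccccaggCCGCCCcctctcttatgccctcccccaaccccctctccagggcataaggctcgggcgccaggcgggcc
Col5a1, chr2:27886175-27886384, plus strand: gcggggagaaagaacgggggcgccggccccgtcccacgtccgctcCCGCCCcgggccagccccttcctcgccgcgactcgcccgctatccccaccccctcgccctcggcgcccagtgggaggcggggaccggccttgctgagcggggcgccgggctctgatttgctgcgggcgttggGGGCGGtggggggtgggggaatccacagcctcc
Each of the 4 stretches held 2 GC boxes and none held a TATA box, in genes that rose and in genes that fell alike. Only the Col25a1 stretch of these 4 held a CCAAT box. Over the 250-base windows of the whole RefSeq table, 32.7% of 32841 held the GC box, 33.9% the CCAAT box and 12.4% the TATA box. Of the 55 windows of the genes described here, 54.5% held the GC box, 27.3% the CCAAT box and 7.27% the TATA box. Of the genes with an entry, a GC box stood before 5 of the 9 that rose and 5 of the 6 that fell, a CCAAT box before 5 and 1, and a TATA box before 0 and 1. A match is a description of the letters and does not show a bound site.

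The depth lay between 13057288 and 15808212 fragments per library, as recovered from the steps of the values. Library 4 of the tMCAO/R group stood apart, with a median rank correlation of 0.908 with the rest of its group against 0.964 to 0.974 for the others. The 4 Y-linked genes examined (Ddx3y, Eif2s3y, Kdm5d and Uty) were listed at 0 in every Sham library and summed to between 7.79 and 15.9 FPKM in every tMCAO/R library, which goes against the label of male mice for the Sham group. Sex and surgery therefore cannot be told apart in any comparison below. Markers of brain regions also differed: the hippocampal markers summed to between 193 and 277 FPKM in Sham and between 33.2 and 79.1 FPKM in tMCAO/R mice, and the striatal markers to between 23.3 and 33.4 FPKM and between 53.7 and 500 FPKM. Cortical layer markers were present in all libraries and were higher in tMCAO/R mice (30 to 40.7 FPKM against 64.4 to 115 FPKM). Oligodendrocyte markers summed to between 641 and 1510 FPKM in Sham and between 327 and 628 FPKM in tMCAO/R mice. Astrocyte markers summed to between 254 and 291 FPKM and between 160 and 226 FPKM. The single astrocyte markers did not share a direction. By the test described below 1 of 6 rose and 2 fell, with a median log2FC of 0.15, while 17.8% of all tested genes rose and 17.8% fell. Choroid plexus and ependymal markers summed to between 38.1 and 1880 FPKM in Sham, highest in mouse 4, and between 2.74 and 9.28 FPKM in tMCAO/R mice. Mitochondrial genes made up 5.29% to 8.50% of the recovered fragments in Sham and 2.85% to 4.66% in tMCAO/R mice, except 8.68% in library 4. The part that these differences have in the results below was not tested. In bulk tissue, fewer cells of a type and less RNA per cell cannot be told apart.

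A gene was tested with limma on log2(FPKM + 1) when it reached 0.5 FPKM in at least 6 libraries, and "rose" and "fell" are used for an adjusted p below 0.01 over all 11743 genes tested. This scale understates the change of genes with low values. Of the 73 genes 28 were tested, of which 11 rose and 7 fell, while 17.8% of all tested genes rose and 17.8% fell. The median log2FC of the 28 was 0.25, beside -0.01 for all tested genes. The minimum bears on these counts, since a gene near 0.5 FPKM passes it only if 1 group is high. Itga9 passed only through the tMCAO/R mice, and Col1a2, Itgam, Itga8 and Col11a2 had at most 1 library at the minimum in 1 of the groups. By the gene lengths behind the deposited FPKM, which differ from merged exon lengths, long genes leaned upward in these libraries. The median log2FC was 0.12 in the quartile of longest genes and -0.20 in that of the shortest, and 11 of the 28 lay in the longest quartile. None of the 28 passed a |log2FC| of 2, which 0.247% of tested genes did upward and 0.255% downward. A second fit, limma-voom on the recovered fragments, could include 69 of the 73 genes. In it 15 rose and 9 fell, beside 16.7% and 16.9% of its 13900 genes, and the median log2FC was -0.08. The call was the same in both fits for 16 of the 18 genes called by limma, and the exceptions were Col1a1 and Col5a1. Without tMCAO/R library 4, 12 of 27 genes rose and 7 fell in limma (21.9% and 21.3% of all genes tested), and 18 of 68 rose and 10 fell in limma-voom (21.1% and 20.5%). Over the whole table all 6 tMCAO/R mice lay above all Sham mice in 12.3% of genes and below them in 12.6%, against 11 and 8 of the 73.

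**Figure D1:**
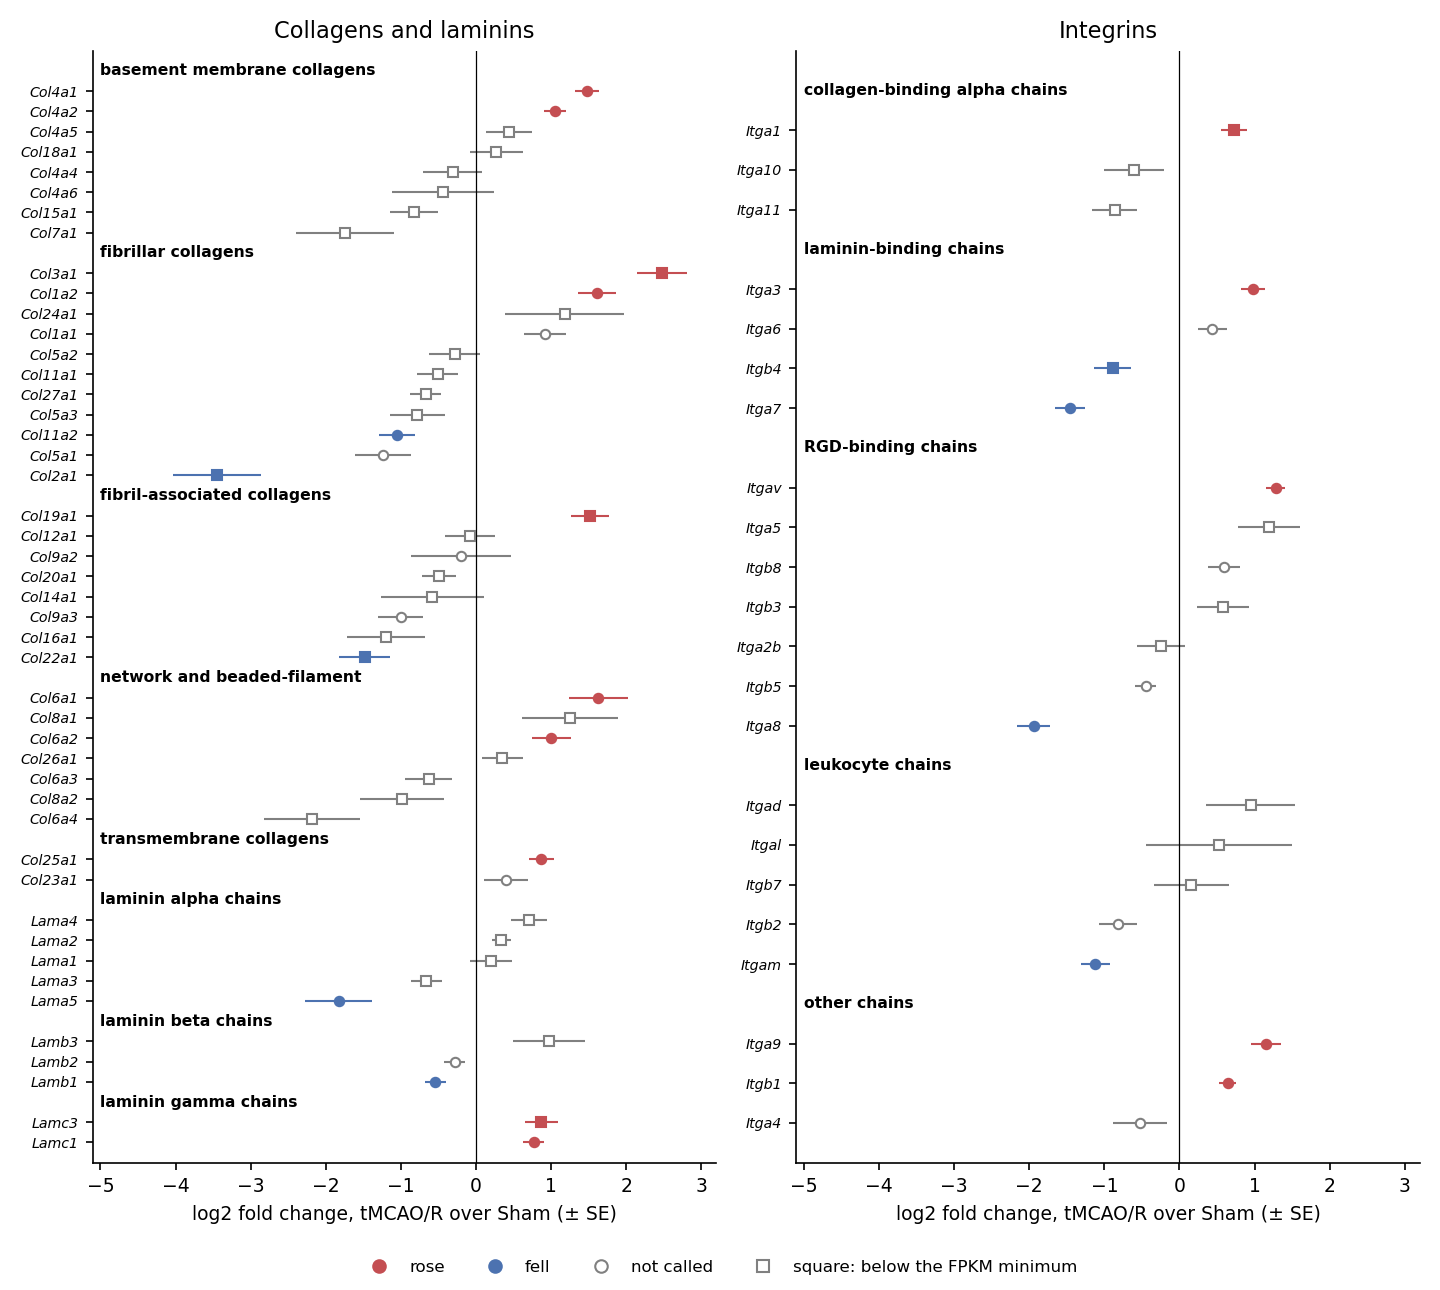
The plot gives the log2 fold change of tMCAO/R over Sham with its standard error for 68 of the 69 genes in the limma-voom fit on fragments, grouped by role. Of these 15 rose (filled red) and 9 fell (filled blue). Some groups hold both a rise and a fall, such as Itgav and Itga8 among the RGD-binding chains. Others hold called genes of a single direction but mostly genes not called. Of 8 basement membrane collagens 2 rose, 0 fell and 6 were not called, with a median log2FC of -0.02. Of all genes in this fit 16.7% rose.

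The collagen IV chains of vascular basement membranes, Col4a1 and Col4a2, rose together, and they had the smallest adjusted p of the collagens and laminins tested with limma. Col4a1 (chr8:11248423-11362826, GRCm39, minus strand, 54 merged exons) was at 2.38, 2.32, 2.16, 1.80, 1.87 and 1.75 FPKM in Sham mice 1 to 6 and at 6.07, 5.76, 7.20, 3.81, 7.65 and 4.37 FPKM in tMCAO/R mice 1 to 6. The groups did not overlap, and the means of 2.05 ± 0.275 and 5.81 ± 1.51 FPKM (SD, n = 6 each) stood 2.84-fold apart (log2FC 1.13, SE 0.14, adjusted p = 1.5e-05, limma). Col4a2 (chr8:11362471-11499287, plus strand) was at 4.66, 5.66, 6.66, 4.60, 4.48 and 3.81 FPKM in Sham and at 10.8, 9.41, 12.2, 7.74, 12.4 and 8.73 FPKM in tMCAO/R mice. Every tMCAO/R mouse again lay above every Sham mouse, with a 2.05-fold ratio of means (log2FC 0.91, SE 0.13, adjusted p = 7.9e-05, limma). The lowest tMCAO/R value of both genes was that of mouse 4, and without it the log2FC was 1.23 for Col4a1 and 0.97 for Col4a2. The 2 genes lie head to head, with annotated starts at positions 11362826 and 11362509 and 318 bases in common, so reads from that stretch cannot be assigned to 1 of them without strand. These bases are part of the 4.94% of Col4a1's exons and 4.93% of Col4a2's that other genes also cover. Groups of mice without any overlap, with tMCAO/R higher, were found in 13.8% of tested genes.

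Levels of different genes were compared per kilobase of merged GENCODE exons, since the lengths behind the deposited FPKM differed from these by a factor of 0.859 to 5.66 among the genes described here. On that scale Col4a1 stood at 4.70 ± 0.632 in Sham and 13.3 ± 3.47 in tMCAO/R mice (SD). Col4a2 stood at 5.64 ± 1.15 and 11.6 ± 2.16 scaled fragments per kilobase. The mean of Col4a2 was the higher in Sham and that of Col4a1 in tMCAO/R mice, but the spreads overlapped and the order was not tested. It also depends on the length used, since by deposited FPKM the mean of Col4a2 was the higher in both groups. The other basement membrane collagens lay below the minimum. Col4a5, Col4a6, Col4a4, Col15a1 and Col18a1 (the last is cut to release endostatin) had group means between 0.0867 and 0.355 FPKM, and none of them was called on fragments. Col7a1, the anchoring fibril collagen, averaged 0.0993 FPKM in Sham and 0.0405 FPKM in tMCAO/R mice and was not called (adjusted p = 0.0363, limma-voom). Col4a3 had too few fragments for either fit, with 0 to 15 per library. The depth limits what can be said of these genes, and Col4a5, for one, held 31 to 127 fragments per library.

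**Figure D2:**
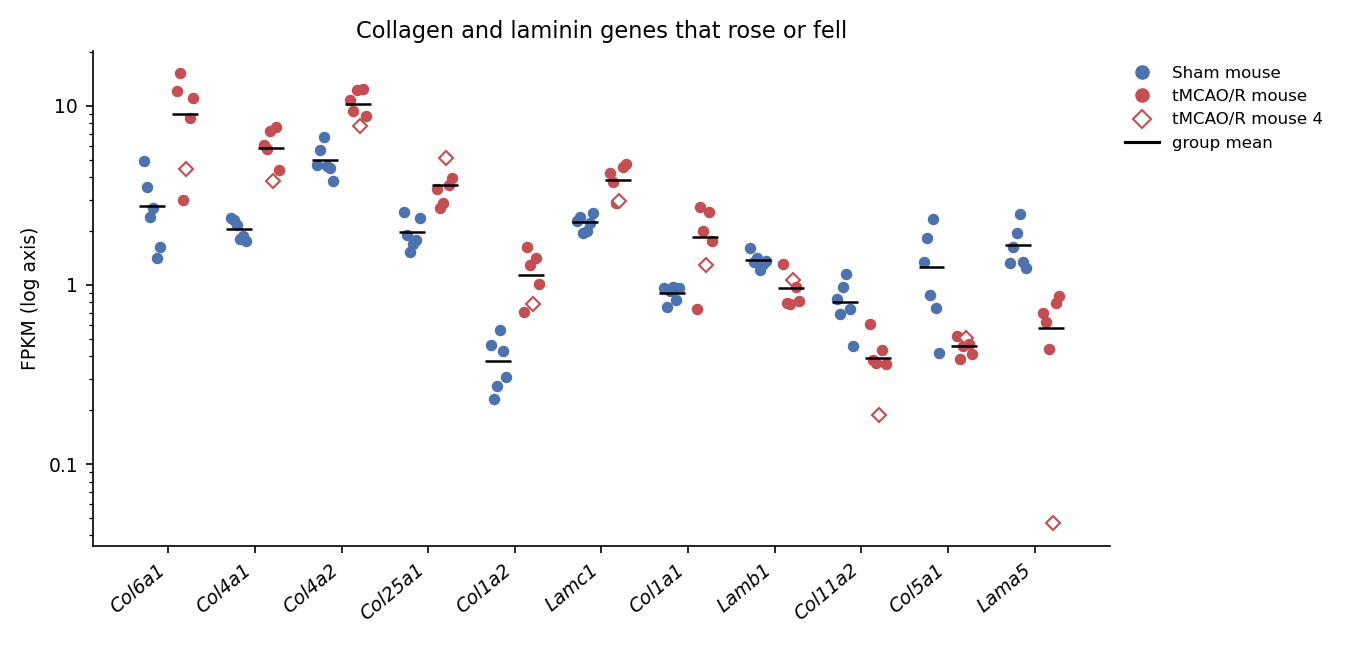
FPKM on a log axis in each of 12 mice for the 7 collagen and laminin genes that rose and the 4 that fell, with group means as black bars and tMCAO/R mouse 4 as an open diamond. Both groups are separate for Col4a1, Col4a2, Col25a1, Col1a2, Lamc1 and Lama5, and mouse 4 lies lowest for Lama5 at 0.0469 FPKM.

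Collagen I rose from low levels, and the fibrillar collagens as a group split. Col1a2 (chr6:4504814-4541555), which encodes the alpha 2 chain of collagen I, was at 0.460, 0.231, 0.273, 0.559, 0.430 and 0.306 FPKM in Sham and at 0.710, 1.64, 1.29, 0.782, 1.42 and 1.01 FPKM in tMCAO/R mice. All tMCAO/R values lay above all Sham values (log2FC 0.62, SE 0.11, adjusted p = 0.00028, limma). Col1a1 (chr11:94827050-94843868), the alpha 1 chain, was at 0.968, 0.751, 0.924, 0.978, 0.827 and 0.962 FPKM in Sham and at 0.738, 2.74, 1.99, 1.29, 2.55 and 1.75 FPKM in tMCAO/R mice. Mouse 1 of the tMCAO/R group lay below every Sham mouse while the other 5 lay above them all. The rise of Col1a1 (log2FC 0.53, SE 0.15, adjusted p = 0.00904, limma) was lost when any Sham library or tMCAO/R library 2, 3, 5 or 6 was left out, with adjusted p up to 0.0222, and in the fit on fragments (adjusted p = 0.014). Col3a1, the main chain of collagen III fibers, stayed below the minimum in every Sham mouse (0.0712 to 0.187 FPKM) and reached 0.421 to 0.95 FPKM in tMCAO/R mice. Its groups did not overlap, and it rose in the fit on fragments (log2FC 2.48, SE 0.33, adjusted p = 2.8e-05, limma-voom). These 3 genes make the fibers of skin, vessel walls and scars.

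Col5a1 and Col11a2, chains of the minor fibrillar collagens V and XI that regulate fiber assembly, fell. Col5a1 (chr2:27776397-27929526) was at 1.35, 1.82, 0.884, 2.35, 0.740 and 0.419 FPKM in Sham and at 0.521, 0.386, 0.454, 0.506, 0.467 and 0.413 FPKM in tMCAO/R mice. Sham mice ranged from 0.419 to 2.35 FPKM and tMCAO/R mice only from 0.386 to 0.521 FPKM, and Sham mouse 6 lay within the tMCAO/R range. Its fall (log2FC -0.57, SE 0.16, adjusted p = 0.00971, limma) was lost without any of Sham libraries 1 to 4 or any tMCAO/R library, with adjusted p up to 0.0256, and on fragments (adjusted p = 0.0118). Col11a2 (chr17:34258108-34285664) was at 0.832, 0.685, 0.970, 1.15, 0.733 and 0.457 FPKM in Sham and at 0.607, 0.381, 0.365, 0.188, 0.434 and 0.364 FPKM in tMCAO/R mice. The groups overlapped only through Sham mouse 6 and tMCAO/R mouse 1 (log2FC -0.37, SE 0.09, adjusted p = 0.00428, limma). Leaving out any of Sham libraries 1 to 5 or tMCAO/R library 1 put Col11a2 below the minimum. Col2a1, the collagen of cartilage, was low in Sham (0.118 to 0.339 FPKM) and lower in tMCAO/R mice (0.00 to 0.0503 FPKM), with no overlap, and fell on fragments (log2FC -3.45, SE 0.59, adjusted p = 0.00023, limma-voom), where tMCAO/R libraries held 0 to 12 fragments. The other fibrillar genes Col5a2, Col5a3, Col11a1, Col24a1 and Col27a1 had group means of 0.0838 to 0.5 FPKM and were not called in the fit on fragments. Markers of fibroblasts and meninges, cells that make fibrillar collagen, showed no single direction beside these genes. Of the 6 tested 1 rose (Fmod) and 1 fell (Ogn), and the sum of the 7 found was 8.55 to 13.6 FPKM in Sham and 3.58 to 17.1 FPKM in tMCAO/R mice. The 17.1 FPKM was the sum in tMCAO/R mouse 4. Without that library 1 rose and 2 fell, as Dcn fell too (log2FC -0.91, adjusted p = 0.00112, limma).

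Col6a1 had the largest log2FC of all 28 tested genes and also a wide spread. Collagen VI forms beaded filaments next to basement membranes, built of Col6a1, Col6a2 and a further chain. Col6a1 (chr10:76543440-76562283) was at 4.92, 3.54, 2.39, 2.70, 1.42 and 1.63 FPKM in Sham and at 12.1, 15.2, 3.00, 4.42, 8.54 and 11.0 FPKM in tMCAO/R mice. Mice 3 and 4 of the tMCAO/R group lay within the Sham range and the other 4 above it (log2FC 1.33, SE 0.32, adjusted p = 0.00326, limma), and the call held without any single library. Col6a2, its neighbor on chromosome 10, was at 0.744, 0.755, 0.420, 0.598, 0.375 and 0.442 FPKM in Sham and at 1.39, 2.06, 0.869, 0.703, 0.804 and 1.02 FPKM in tMCAO/R mice. It missed the threshold in limma (log2FC 0.44, SE 0.13, adjusted p = 0.0111) and passed it on fragments (log2FC 1.00, SE 0.26, adjusted p = 0.00448, limma-voom) and in limma without tMCAO/R library 4 (adjusted p = 0.00416). These further chains were low. Col6a3 lay between 0.0244 and 0.169 FPKM over all mice and was not called. Col6a4 lay between 0.0284 and 0.523 FPKM, with means of 0.32 FPKM in Sham and 0.0574 FPKM in tMCAO/R mice. On fragments Col6a4 narrowly missed the threshold (log2FC -2.18, SE 0.64, adjusted p = 0.0104, limma-voom), with 4 to 14 fragments in tMCAO/R libraries. It fell in limma with no minimum (adjusted p = 0.00327). Col6a5 had at most 18 fragments in a library and entered neither fit. Col8a1, Col8a2 and Col26a1 were not called. The 2 type VIII genes were highest in Sham mouse 4, at 1.24 FPKM for Col8a1 and 2.11 FPKM for Col8a2. In that library the choroid plexus and ependymal markers summed to 1880 FPKM, against 38.1 to 350 FPKM in the other Sham and 2.74 to 9.28 FPKM in the tMCAO/R mice. The oligodendrocyte markers were highest there too, at 1510 FPKM. The part of any of these cells in the type VIII values was not tested.

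Col25a1, a transmembrane collagen of neurons that is known from amyloid plaques and from the wiring of motor neurons, rose. It (chr3:129925150-130393532) was at 2.54, 1.91, 1.52, 1.69, 1.79 and 2.37 FPKM in Sham and at 3.44, 2.68, 2.88, 5.14, 3.60 and 3.95 FPKM in tMCAO/R mice. The lowest tMCAO/R mouse lay just above the highest Sham mouse, and mouse 4 was the highest (log2FC 0.63, SE 0.13, adjusted p = 0.00095, limma), with a log2FC of 0.54 without it. Of 6 neuron markers 3 rose and 1 fell, beside 17.8% of all tested genes in each direction. Their sum was 532 to 641 FPKM in Sham and 539 to 855 FPKM in tMCAO/R mice, highest in tMCAO/R mouse 4. The part of neurons in the rise of Col25a1 was not tested. Col23a1, another transmembrane collagen, did not pass the test, with 1.38 ± 0.367 and 1.99 ± 1.05 FPKM (log2FC 0.28, SE 0.19, adjusted p = 0.231). Col13a1 and Col17a1 had at most 25 fragments in any library. Among the fibril-associated collagens, Col9a3 was at 1.56, 1.40, 1.5, 4.28, 1.46 and 1.03 FPKM in Sham and at 0.942, 0.849, 0.876, 0.446, 0.998 and 0.924 FPKM in tMCAO/R mice. All tMCAO/R mice lay below all Sham mice, but Col9a3 was not called in either fit (log2FC -0.57, SE 0.18, adjusted p = 0.0166, limma). Sham mouse 4, the library highest in choroid plexus and ependymal markers, stood far above the others. The part of these cells in its Col9a3 value was not tested. Col9a2, whose chain joins that of Col9a3 in collagen IX, was not called either (adjusted p = 0.799, limma), and tMCAO/R mouse 4 held 0.0367 FPKM where the other 5 held 1.29 to 2.19 FPKM. Below the minimum, Col19a1 rose on fragments (0.117 to 0.272 FPKM in Sham, 0.446 to 0.883 FPKM in tMCAO/R mice, log2FC 1.52, SE 0.25, adjusted p = 0.00015, limma-voom). Col22a1 fell on fragments (log2FC -1.48, SE 0.34, adjusted p = 0.00234, limma-voom). Col12a1, Col14a1, Col16a1 and Col20a1 were not called.

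The laminin chains moved in opposite directions: the shared gamma 1 chain rose while the alpha 5 and beta 1 chains fell. Lamc1 (chr1:153094597-153208774), the gamma chain of most laminins, was at 2.28, 2.41, 1.96, 2.00, 2.22 and 2.53 FPKM in Sham and at 4.23, 3.74, 2.85, 2.96, 4.56 and 4.71 FPKM in tMCAO/R mice. The groups did not overlap and the means stood 1.72-fold apart (log2FC 0.57, SE 0.11, adjusted p = 0.00065, limma). Lama5 (chr2:179818166-179867712), the alpha chain of laminins in mature endothelial basement membranes, was at 1.33, 1.62, 1.96, 2.50, 1.34 and 1.25 FPKM in Sham and at 0.697, 0.620, 0.440, 0.0469, 0.792 and 0.871 FPKM in tMCAO/R mice. Every tMCAO/R mouse lay below every Sham mouse (log2FC -0.76, SE 0.14, adjusted p = 0.00054, limma). Mouse 4, with 8 fragments of Lama5, lay far below the rest, and the fall was -0.65 without it in limma and -1.28 against -1.83 on fragments. Lamb1 (chr12:31315030-31379658), the beta 1 chain, was at 1.60, 1.35, 1.42, 1.21, 1.31 and 1.36 FPKM in Sham and at 1.31, 0.792, 0.786, 1.07, 0.972 and 0.815 FPKM in tMCAO/R mice. Only tMCAO/R mouse 1 reached the Sham range (log2FC -0.28, SE 0.08, adjusted p = 0.00728, limma). This call was lost without Sham library 1, 2, 3, 5 or 6 or tMCAO/R library 2, 3, 5 or 6, with adjusted p up to 0.020, and 7.62% of its exon bases are shared with Dld and Gm61290 on the opposite strand. Groups with all tMCAO/R values lower were found in 13.2% of tested genes.

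Lamb2, the beta 2 chain of vascular laminins and the laminin gene with the highest level per kilobase in both groups, was at 4.07, 3.52, 3.84, 5.33, 4.31 and 3.43 FPKM in Sham and at 3.14, 3.98, 3.42, 2.19, 4.01 and 3.39 FPKM in tMCAO/R mice. The groups overlapped widely and it was not called (log2FC -0.23, SE 0.12, adjusted p = 0.125, limma). The other alpha chains lay below the minimum. Lama2, the chain of astrocyte and pericyte laminin, was at 0.321 ± 0.027 FPKM in Sham and 0.406 ± 0.0407 FPKM in tMCAO/R mice (adjusted p = 0.038, limma-voom), and Lama4, the other endothelial alpha chain, at 0.252 ± 0.0462 and 0.423 ± 0.140 FPKM (adjusted p = 0.0221). Lama1 and Lama3 were not called with all mice, and Lama3 fell on fragments only without library 4. Lamc3 rose on fragments (0.209 to 0.429 FPKM in Sham, 0.386 to 0.758 FPKM in tMCAO/R mice, log2FC 0.87, SE 0.22, adjusted p = 0.00484, limma-voom). The epithelial chain Lamb3 averaged 0.127 FPKM in Sham and 0.298 FPKM in tMCAO/R mice and was not called with all mice, and it rose on fragments without library 4.

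The blood vessel markers gave no single direction beside these basement membrane genes. Of 8 endothelial markers 3 rose (Pecam1, Cdh5 and Flt1) and 3 fell (Cldn5, Tek and Slco1a4), and their sum was 72.6 to 92.6 FPKM in Sham and 38.0 to 85.1 FPKM in tMCAO/R mice. Of 5 tested markers of pericytes and smooth muscle 1 rose (Rgs5) and 1 fell (Vtn), with sums of 41.0 to 54.2 FPKM and 44.7 to 57.5 FPKM. The part of these cells in the changes of Col4a1, Col4a2 and the laminins was not tested.

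Among the integrins, 4 rose and 3 fell of the 12 tested, beside 17.8% of all tested genes in each direction, and the median log2FC was 0.05. Itgb1 (chr8:129411876-129460618), the common beta chain of the collagen, laminin and many fibronectin receptors, was at 5.29, 5.04, 4.25, 6.45, 5.79 and 6.02 FPKM in Sham and at 8.55, 8.48, 7.63, 8.62, 7.72 and 9.55 FPKM in tMCAO/R mice. The groups were apart in every mouse, with a 1.54-fold ratio of means (log2FC 0.55, SE 0.10, adjusted p = 0.00033, limma). Per kilobase of merged exons it stood at 7.41 in Sham mice, second among the genes described here to Itgb5 at 8.95. In tMCAO/R mice it stood at 11.4, below Col4a1 (13.3) and Col4a2 (11.6) and above Itgb5 (6.66). Itgav (chr2:83554403-83637260), the alpha chain of the receptors for vitronectin, fibronectin and latent TGF-beta, was at 2.33, 2.02, 1.80, 2.55, 2.21 and 2.41 FPKM in Sham and at 4.39, 5.10, 5.05, 6.67, 4.63 and 6.46 FPKM in tMCAO/R mice. It had the smallest adjusted p of the 28 genes, and no mouse of the groups overlapped (ratio of means 2.43, log2FC 0.98, SE 0.10, adjusted p = 4.9e-06, limma).

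**Figure D3:**
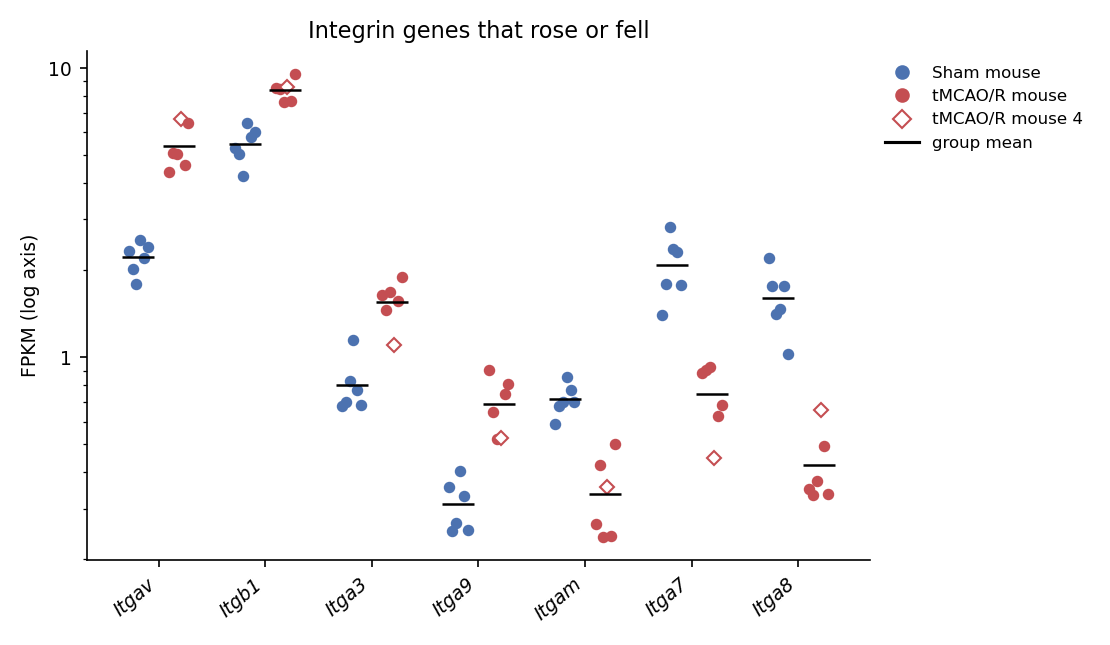
FPKM on a log axis in each of 12 mice for the 4 integrin genes that rose and the 3 that fell, with group means as black bars and tMCAO/R mouse 4 as an open diamond. The groups do not overlap for Itgav, Itgb1, Itga9, Itgam, Itga7 and Itga8, and for Itga3 Sham mouse 4 (1.15 FPKM) lies above tMCAO/R mouse 4 (1.10 FPKM).

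The laminin-binding alpha chains split. Itga3 (chr11:94935296-94967682), which pairs with beta 1 to bind laminins with the alpha 5 chain, was at 0.680, 0.699, 0.829, 1.15, 0.769 and 0.683 FPKM in Sham and at 1.64, 1.46, 1.68, 1.10, 1.56 and 1.89 FPKM in tMCAO/R mice. It rose (log2FC 0.50, SE 0.09, adjusted p = 0.00031, limma), and Sham mouse 4 alone reached the tMCAO/R range. Itga7 (chr10:128769621-128794169), the laminin receptor of muscle and smooth muscle cells, was at 1.40, 1.79, 2.82, 2.36, 2.32 and 1.78 FPKM in Sham and at 0.884, 0.904, 0.927, 0.447, 0.625 and 0.684 FPKM in tMCAO/R mice. It fell without overlap (ratio of means 0.358, log2FC -0.81, SE 0.11, adjusted p = 5e-05, limma). Itga6, which binds laminin with beta 1 or beta 4, averaged 0.794 ± 0.0942 and 1.11 ± 0.334 FPKM and was not called (log2FC 0.22, SE 0.10, adjusted p = 0.0718). Itgb4, its partner in hemidesmosomes, lay below the minimum and fell on fragments (0.373 to 0.662 FPKM in Sham, 0.159 to 0.447 FPKM in tMCAO/R mice, log2FC -0.89, SE 0.25, adjusted p = 0.00742, limma-voom), but not without library 4, and 17.5% of its exon bases are shared with Galk1 and Gm73820.

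All collagen-binding alpha chains lay below the minimum. Itga1, a receptor for collagen IV, was at 0.321, 0.353, 0.222, 0.237, 0.329 and 0.377 FPKM in Sham and at 0.418, 0.547, 0.536, 0.619, 0.438 and 0.469 FPKM in tMCAO/R mice, and rose on fragments without overlap (log2FC 0.73, SE 0.17, adjusted p = 0.00236, limma-voom). Of its exon bases 14.1% are shared with other genes, Mocs2 among them. Itga11, a receptor for fibrillar collagens, was at 0.559, 0.598, 0.572, 0.431, 0.367 and 0.549 FPKM in Sham and at 0.321, 0.293, 0.396, 0.0891, 0.451 and 0.25 FPKM in tMCAO/R mice, with an adjusted p of 0.0253 in limma-voom. Itga10 was not called, and 35.7% of its exon bases are shared with other gene models.

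The other receptors of the RGD class, which bind a short motif of matrix proteins such as fibronectin and vitronectin, did not follow Itgav as a group. Itga8 (chr2:12110900-12307214), which pairs with beta 1 and binds nephronectin, was at 2.2, 1.76, 1.41, 1.47, 1.77 and 1.03 FPKM in Sham and at 0.350, 0.335, 0.374, 0.657, 0.492 and 0.338 FPKM in tMCAO/R mice. It had the lowest log2FC of the 28 genes and no overlap (ratio of means 0.264, log2FC -0.86, SE 0.10, adjusted p = 1.1e-05, limma). The hippocampal markers fell in the same mice, with 6 of 8 called lower, and their part in the fall of Itga8 was not tested. Itgb5, a beta partner of Itgav, was at 5.77, 6.41, 6.39, 6.67, 5.81 and 6.77 FPKM in Sham and at 4.23, 5.87, 5.02, 2.81, 5.45 and 4.75 FPKM in tMCAO/R mice. It was not called with all mice (log2FC -0.38, SE 0.12, adjusted p = 0.0185) and fell without library 4 (log2FC -0.27, adjusted p = 0.00942, limma). Itgb8, the beta partner with which Itgav frees TGF-beta in brain, went from 3.12 ± 0.410 to 4.98 ± 2.39 FPKM. The value of 9.83 FPKM in tMCAO/R mouse 4 set this spread, and Itgb8 rose only without that library (log2FC 0.29, adjusted p = 0.00717, limma). Itga5, the fibronectin receptor chain, Itgb3 and Itga2b lay below the minimum and were not called with all mice, and Itga5 rose on fragments without library 4.

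Itga9, a chain that binds tenascin and osteopontin, was below 0.5 FPKM in all Sham mice and above it in all tMCAO/R mice. Its values were 0.356, 0.251, 0.268, 0.404, 0.332 and 0.253 FPKM against 0.901, 0.646, 0.523, 0.526, 0.749 and 0.806 FPKM (log2FC 0.36, SE 0.07, adjusted p = 0.0005, limma). It passed the minimum only through the tMCAO/R mice, and leaving out any tMCAO/R library put it below the minimum, while on fragments it rose with and without library 4 (log2FC 1.15 and 1.2). Itga4, its nearest relative and a receptor for VCAM1 and fibronectin, was not called, and tMCAO/R mouse 4 held 1.61 FPKM against 0.220 to 0.542 FPKM in the other 5. Cerkl shares 20.8% of its exon bases on the opposite strand.

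The leukocyte integrins did not rise. Itgam, the alpha chain of complement receptor 3 on microglia and myeloid cells, was at 0.586, 0.680, 0.703, 0.856, 0.768 and 0.701 FPKM in Sham and at 0.265, 0.423, 0.239, 0.355, 0.241 and 0.503 FPKM in tMCAO/R mice. It fell without overlap (log2FC -0.36, SE 0.07, adjusted p = 0.00042, limma). Of the exon bases of Itgam 67.4% are shared with the gene model Gm49368 on the same strand, so its values are uncertain. Itgb2, its beta chain, was at 0.823, 0.911, 0.986, 1.25, 0.823 and 0.942 FPKM in Sham and at 0.517, 1.01, 0.771, 0.511, 0.313 and 0.310 FPKM in tMCAO/R mice, and was not called (log2FC -0.33, SE 0.10, adjusted p = 0.0155, limma). Itgal, Itgad and Itgb7 averaged 0.0285 to 0.379 FPKM and were not called. Of 8 microglia markers 1 rose and 5 fell, beside 17.8% of all tested genes in each direction. The microglia markers summed to 38.7 to 49.4 FPKM in Sham and 29.0 to 41.0 FPKM in tMCAO/R mice. The 4 markers of neutrophils and monocytes in the table summed to 1.23 to 41.6 FPKM in Sham, highest in mouse 4, and to 1.36 to 8.63 FPKM in tMCAO/R mice. The part of these cells in the values of Itgam and Itgb2 was not tested.

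To set a matrix gene beside its receptor within each mouse, the log2 ratio of their FPKM (0.1 added to each) was compared for 6 pairs with an exact permutation test (two-sided), in which 6 against 6 mice cannot give a p below 0.00216. The ratio of Lama5 to Itga3, a laminin chain and its receptor, lay between 0.73 and 1.15 in Sham mice and between -3.03 and -0.90 in tMCAO/R mice, without overlap. The sign of a ratio rests on the gene lengths behind the deposited FPKM, and per kilobase of merged exons Lama5 already stood below Itga3 in Sham mice (means 1.90 and 2.24), so only the difference between the groups is compared here. The means of 0.95 and -1.49 differed by -2.44 (exact p = 0.00216, adjusted over the 6 pairs 0.00649, n = 6 each). In the fit of single genes on these libraries Lama5 fell and Itga3 rose. The difference was -2.13 without tMCAO/R mouse 4, which had the lowest ratio. The ratio of Lama2 to Itga7 went the other way without overlap, from -2.34 ± 0.34 to -0.71 ± 0.44, a difference of 1.63 (exact p = 0.00216, adjusted 0.00649). Here the laminin chain itself was not called and the receptor fell. The ratio of Col4a1 to Itga1 was 2.41 ± 0.30 in Sham and 3.26 ± 0.50 in tMCAO/R mice (difference 0.85, exact p = 0.00866, adjusted 0.0173). That of Col4a1 to Itgb1 was -1.37 ± 0.37 and -0.57 ± 0.49 (difference 0.81, exact p = 0.0195, adjusted 0.0292). In both pairs the ligand and the receptor were higher in tMCAO/R mice and the ligand by more. In the tMCAO/R group, mouse 4 lay within the Sham range for Col4a1 to Itga1, and mice 4 and 6 did for Col4a1 to Itgb1. The difference for Col4a1 and Itgb1 did not pass 0.05 without tMCAO/R mouse 3 (0.71) or 5 (0.70), with an adjusted exact p of 0.052 each. The ratios of Lamc1 to Itgb1 (difference 0.11, exact p = 0.444, adjusted 0.444) and of Lama4 to Itga6 (difference 0.14, exact p = 0.392, adjusted 0.444) overlapped widely between the groups. Pairs that share Col4a1 or Itgb1 are not independent, and a ratio of 2 transcripts says nothing of the amount of protein. The ratios come from the same libraries as the calls of single genes, so they are no separate support for those calls.

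**Figure D4:**
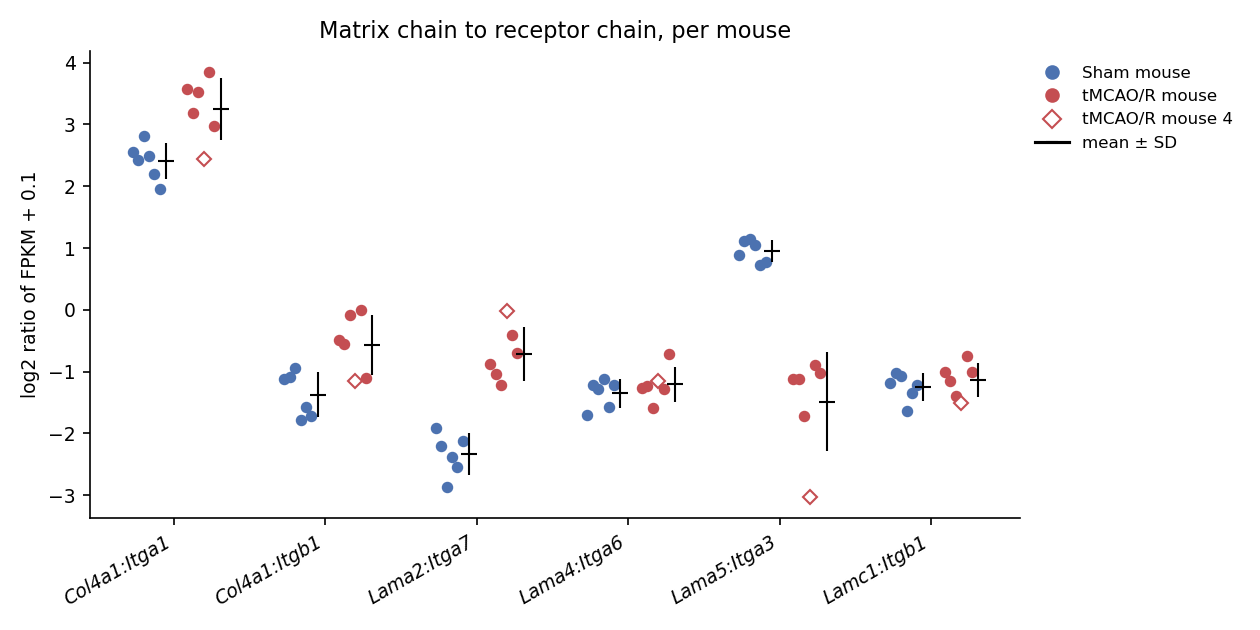
The plot shows the log2 ratio of a matrix gene to its receptor gene (FPKM + 0.1) in each of 12 mice for 6 pairs, with mean and SD per group in black and tMCAO/R mouse 4 as an open diamond. Lama5:Itga3 lies between 0.73 and 1.15 in Sham and between -3.03 and -0.90 in tMCAO/R mice, while the groups overlap for Lama4:Itga6 and Lamc1:Itgb1.

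Genes that work with these chains also moved in both directions. The counts of the following lists stand beside 17.8% of all tested genes that rose and 17.8% that fell, with a median log2FC of -0.01. Of 10 tested partners in the basement membrane 1 rose and 4 fell (median log2FC -0.29). Nid1, which links laminin to collagen IV, rose from 0.448 ± 0.0815 to 1.33 ± 0.130 FPKM (log2FC 0.69, SE 0.06, adjusted p = 1.4e-06, limma), whereas the matrix genes Smoc2 and Vtn, of which Vtn encodes the Itgav ligand vitronectin, fell (log2FC -1.02 and -0.78). Agrn, which binds laminin, was at 5.08 ± 0.622 and 3.86 ± 0.850 FPKM and was not called (adjusted p = 0.0368). Of 19 tested genes for collagen processing 4 rose and 4 fell (median -0.10), which is near the share over all tested genes. Adamts2, which removes the propeptide of fibrillar procollagen, rose from 0.614 ± 0.105 to 1.92 ± 0.210 FPKM (log2FC 0.85, SE 0.07, adjusted p = 5.4e-07), and Mia3, needed to export procollagen from the endoplasmic reticulum, rose too (log2FC 0.47). P3h3, a collagen prolyl 3-hydroxylase, fell from 2.80 ± 0.556 to 0.978 ± 0.191 FPKM (log2FC -0.93), and P4hb, a subunit of prolyl 4-hydroxylase, was at 31.1 ± 1.69 and 31.2 ± 4.43 FPKM (log2FC -0.01, SE 0.10, adjusted p = 0.955).

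Of 12 tested matrix receptors outside the integrin family 6 rose and 2 fell (median log2FC 0.27), beside the same 17.8% of all tested genes in each direction. Cd47, which associates with integrins and binds thrombospondin, rose from 7.90 ± 0.758 to 15.6 ± 2.36 FPKM (log2FC 0.89, SE 0.10, adjusted p = 1.1e-05), and the syndecans Sdc4 and Sdc3 rose (log2FC 0.72 and 0.67). Rpsa, a ribosomal protein also known as a laminin receptor, fell from 136 ± 25.0 to 52.7 ± 19.2 FPKM (log2FC -1.40, SE 0.20, adjusted p = 7.7e-05). Of 21 tested partners on the inner side of integrins 3 rose and 4 fell (median 0.04), again near that share. Vcl, the vinculin that ties talin to actin, rose from 0.495 ± 0.159 to 1.28 ± 0.477 FPKM (log2FC 0.59), and the adaptor Crk rose (log2FC 0.53). Ptk2b, a kinase related to focal adhesion kinase, fell from 41.6 ± 5.96 to 22.5 ± 4.27 FPKM (log2FC -0.87), and the kindlin Fermt2 was at 10.0 ± 0.681 and 10.7 ± 3.72 FPKM (adjusted p = 0.834).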

How the data were processed

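The deposited table holds FPKM values of 14317 genes, 1 column per library, which the authors made from paired-end poly(A) libraries with fastp, HISAT2 2.2.1 on GRCm39 and HTSeq 2.0.2. DESeq2 1.24.0 was their test and was not used here. The annotation release, strand setting and gene filter are not given in the sources used here. Genes were matched to GENCODE M39 by identifier (14315 of 14317). FPKM of each gene were whole multiples of the value of 1 fragment within 1e-05, so whole fragments were recovered for 14317 genes. limma 3.58.1 in R 4.3.3 (lmFit, eBayes with trend) was run on log2(FPKM + 1) with a minimum of 0.5 FPKM in 6 libraries and Benjamini-Hochberg adjustment. limma-voom used fragments (at least 10 in 6 libraries, TMM scaling). Ratios were tested in Python 3.11.15. The scripts were tested on simulated data. Alternatives were another pseudocount, other minimums, quantile normalization, a replicate block, left-out libraries and, chosen after seeing the data, limma-voom without tMCAO/R library 4. The genes and lists were chosen with earlier results of these data known. All called genes and the gene with the highest mean FPKM of each role are given in every mouse, and 4 partners per list (the 2 smallest p and the 2 highest means). Same-numbered Sham and tMCAO/R libraries did not deviate together and were not paired. Protein sequences were not analysed here. Some genes are included in the counts but not reported here.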

Additional observations from a re-analysis of the deposited data

Results flagged for a closer look

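In 56 groups of 6 mice (28 tested genes in each of the groups), 5 had a mouse far from the others by Dixon's test, where chance gives about 1 in 20 groups. For Col9a3 Sham mouse 4 was highest at 4.28 FPKM, with the next at 1.56 FPKM, and tMCAO/R mouse 4 was lowest at 0.446 FPKM, with the next at 0.849 FPKM. For Itga3 Sham mouse 4 was highest at 1.15 FPKM, with the next at 0.829 FPKM. In tMCAO/R mouse 4, Itgb8 stood at 9.83 FPKM, with the next at 4.27 FPKM, and Itga4 at 1.61 FPKM, with the next at 0.542 FPKM. So 3 of the 5 were values of tMCAO/R mouse 4, the library that stood apart over all genes.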

How the results depend on the processing

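The 11 genes that rose and 7 that fell became 15 and 9 in limma-voom, 14 and 9 with no minimum, 9 and 4 with a mean of at least 1 FPKM (19 genes tested), 12 and 5 with quantile normalization, 11 and 7 with 0.1 FPKM added, and 0 and 0 beyond a |log2FC| of 2. Leaving out 1 library gave 9 to 18 that rose, the highest in limma-voom without tMCAO/R library 4, and 4 to 10 that fell, with 4 without Sham library 1, 2 or 3. With the replicate block 11 rose and 4 fell. Same-numbered libraries had correlations of -0.122 to 0.217, so the numbers did not pair the mice. With the block the ratio differences stayed at 0.85 (Col4a1 to Itga1, adjusted exact p = 0.0938), 0.81 (Col4a1 to Itgb1, 0.0625), 1.63 (Lama2 to Itga7, 0.0625) and -2.44 (Lama5 to Itga3, 0.0625), and none passed 0.05, where the smallest exact p of 6 pairs before adjustment is 0.0312. Lama4 to Itga6 turned to -0.01 with 0.5 FPKM added. Col4a1 to Itgb1 ranged from 0.70 to 0.92 when 1 library was left out. Col9a2, not called, turned from 0.08 to -0.20 in limma-voom, -0.10 with 0.1 FPKM added and -0.02 without tMCAO/R library 2 (up to 0.31 without library 4). The cause was not tested. Depth limits the 45 genes below the minimum, whose mean was at most 0.547 FPKM.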
